A study of Homo sapiens with 4 samples.

Results

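Heat shock chaperones of the cytosol and mitochondria were followed on Affymetrix 3′ arrays in Panc1, an established line of human pancreatic carcinoma cells. The genes were a list of 47 chaperones, cochaperones and heat shock factors, grouped by function. The rule that admits their probe sets uses annotation and no measured value, but each gene was then read from its brightest probe set on these arrays. A gene was analysed through probe sets that the platform annotation assigns to it alone, which left 41 of the 47, out of 19775 genes in all. Not analysed here were HSPA1A, HSPA1B, HSPA8 and TCP1, which are named only by probe sets that also name other genes, and AHSA1 and HSF2, which no probe set names in the annotation used. The inducible HSP70 genes are therefore missing from what follows.

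There were 4 samples with 1 array each: cells treated for 24 hours with romidepsin (Rom), with tamoxifen (Tam) or with both drugs (Combo), and untreated cells (Untreated). Romidepsin inhibits histone deacetylases, and tamoxifen, a drug of breast cancer therapy, binds estrogen receptors. All cultures shared a serum-containing RPMI1640 medium; drug doses are not given in the sources used here. With no replicates there is no test and no p-value, and every fold describes these arrays only. The words rose and fell are kept for differences of at least 2-fold, and such a gene is called. Low signals were first raised to a floor of 66.4, the median over non-control probe sets and arrays.

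Chaperones bind unfolded or partly folded proteins and hold, refold or hand them on. HSP70 works through cycles of ATP use that J-domain proteins (DNAJ) start and that exchange factors (HSP110 and BAG proteins) complete. HSP90 takes over clients such as kinases and steroid receptors with its own set of cochaperones, the chaperonin CCT (also called TRiC) folds actin and tubulin inside a closed chamber, and HSP60 with HSP10 does the same for proteins in the mitochondrial matrix. The transcription factor HSF1 raises many of these genes under proteotoxic stress by binding repeats of the bases GAA in alternating orientation.

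The bulk RNA of a culture was measured, so that fewer expressing cells and less RNA per cell cannot be told apart. The epithelial keratins KRT7, KRT8 and KRT18 and the cadherin CDH1 lay above the floor on all 4 arrays, EPCAM on 3, while the ductal keratin KRT19 lay below it on every array. Of 9 markers of other cell types 4 lay below the floor on all arrays, among them PTPRC and CD3E of leukocytes, and 2 above it on all, COL1A1 and PECAM1. Summed over the 9, signals were 10326 (Rom), 9571 (Tam), 6938 (Combo) and 9573 (Untreated). COL1A1 carries this sum, at 9773, 9163, 6365 and 9282 in the same order of arrays. DES and VWF, below the floor in Untreated, read 192 and 73.6 in Combo. Over the 6 epithelial markers the sums were 32349, 23533, 17054 and 35589 in that order. KRT8 and KRT18 carry the epithelial sum, and KRT7 was lower as well, at 202 in Combo, against 780 in Untreated. CDH1 and EPCAM went the opposite way. CDH1 read 874 in Combo, against 223 in Untreated, and EPCAM 475 in Combo, against 64.3, below the floor, in Untreated. Their part in the results was not tested. Actin control probe sets had 3′ over 5′ ratios of 1.18 on Rom, 1.39 on Tam, 1.73 on Combo and 1.21 on Untreated. For GAPDH control probe sets the ratios were 1.03 on Rom, 1.04 on Tam, 1.07 on Combo and 1.07 on Untreated. Spike-in controls, which carry no RNA of the cells, were at 1.01, 0.781 and 0.819 times their Untreated level on the Rom, Tam and Combo arrays. Among all genes called in the comparison with untreated cells, the share of rises depended on the scaling. For Rom it was 60.7% as deposited and 47.4% with median-centred arrays. For Tam it was 77.5% as deposited, 48.0% with median-centred arrays, 63.4% after quantile normalization and 98.3% with spike-in scaling. For Combo it was 57.9%, 41.2% with median-centred arrays and 72.8% with spike-in scaling. For Combo over Rom it was 64.2%, 46.4% with median-centred arrays and 93.7% with spike-in scaling.

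A subset of the chaperones was lower after romidepsin. HSPB1, BAG2, HSPH1, HSPE1, CCT5 and HSPA9 fell, and HSPA2 alone among the 41 rose. The 6 falls were 14.6% of the 41 genes, against 9.27% of all 13619 genes measured, and the single rise was 2.44%, against 14.3% of all genes. The median log2 fold was -0.10 for the chaperones and 0.06 for all genes. The set of all genes holds many dim ones, while 40 of the 41 lay above the floor on all 4 arrays. With the floor at the 75th percentile 1 of 39 chaperones rose and 6 fell, against 9.10% and 9.46% of 8795 genes. The share of falls was not above that of all genes in every setting: 4 of the 41 fell after quantile normalization, against 10.3% of all genes, and 2 of 27 without probe sets that can match more than 1 transcript, against 8.80%.

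Few of them changed with tamoxifen. HSPA13 and DNAJB4 rose, 4.88% of the 41 against 3.70% of 13051 genes, and 0 fell, against 1.07% of all genes. The median log2 fold of the chaperones was -0.17, beside 0.01 for all genes, and the gap between them lay between -0.20 and 0.014 under the alternatives, above 0 with quantile normalization. With arrays centred on their medians 1 chaperone rose and 1 fell, against 2.21% and 2.39% of all genes.

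With the combination 10 of the 41 genes fell and 3 rose. HSPB1, BAG2, CCT5, HSF1, HSPA9, FKBP4, DNAJB6, HSPH1, CCT7 and CCT3 fell, which is 24.4% against 14.4% of 13802 genes. HSPA13, HSPA4L and DNAJB4 rose, 7.32% against 19.8% of all genes. The median log2 fold was -0.44 for the chaperones and 0.09 for all genes, a gap of -0.53 that lay between -0.56 and -0.31 under the alternative scalings, floors and probe-set rules. Scaling to the spike-in controls gave 6 rises and 6 falls among the 41 genes, against 25.9% and 9.69% of all genes. With the floor at the 75th percentile 3 of 39 rose and 9 fell, against 15.8% and 15.3% of 9033 genes. The Combo array also had the highest actin 3′ to 5′ ratio, while its GAPDH ratio was 1.07, against 1.07 in Untreated. The part of RNA integrity in the falls with the combination was not tested. In all, 15 of the 41 genes changed at least 2-fold in 1 or more of the comparisons with untreated cells, and 26 did not.

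**Figure D1:**
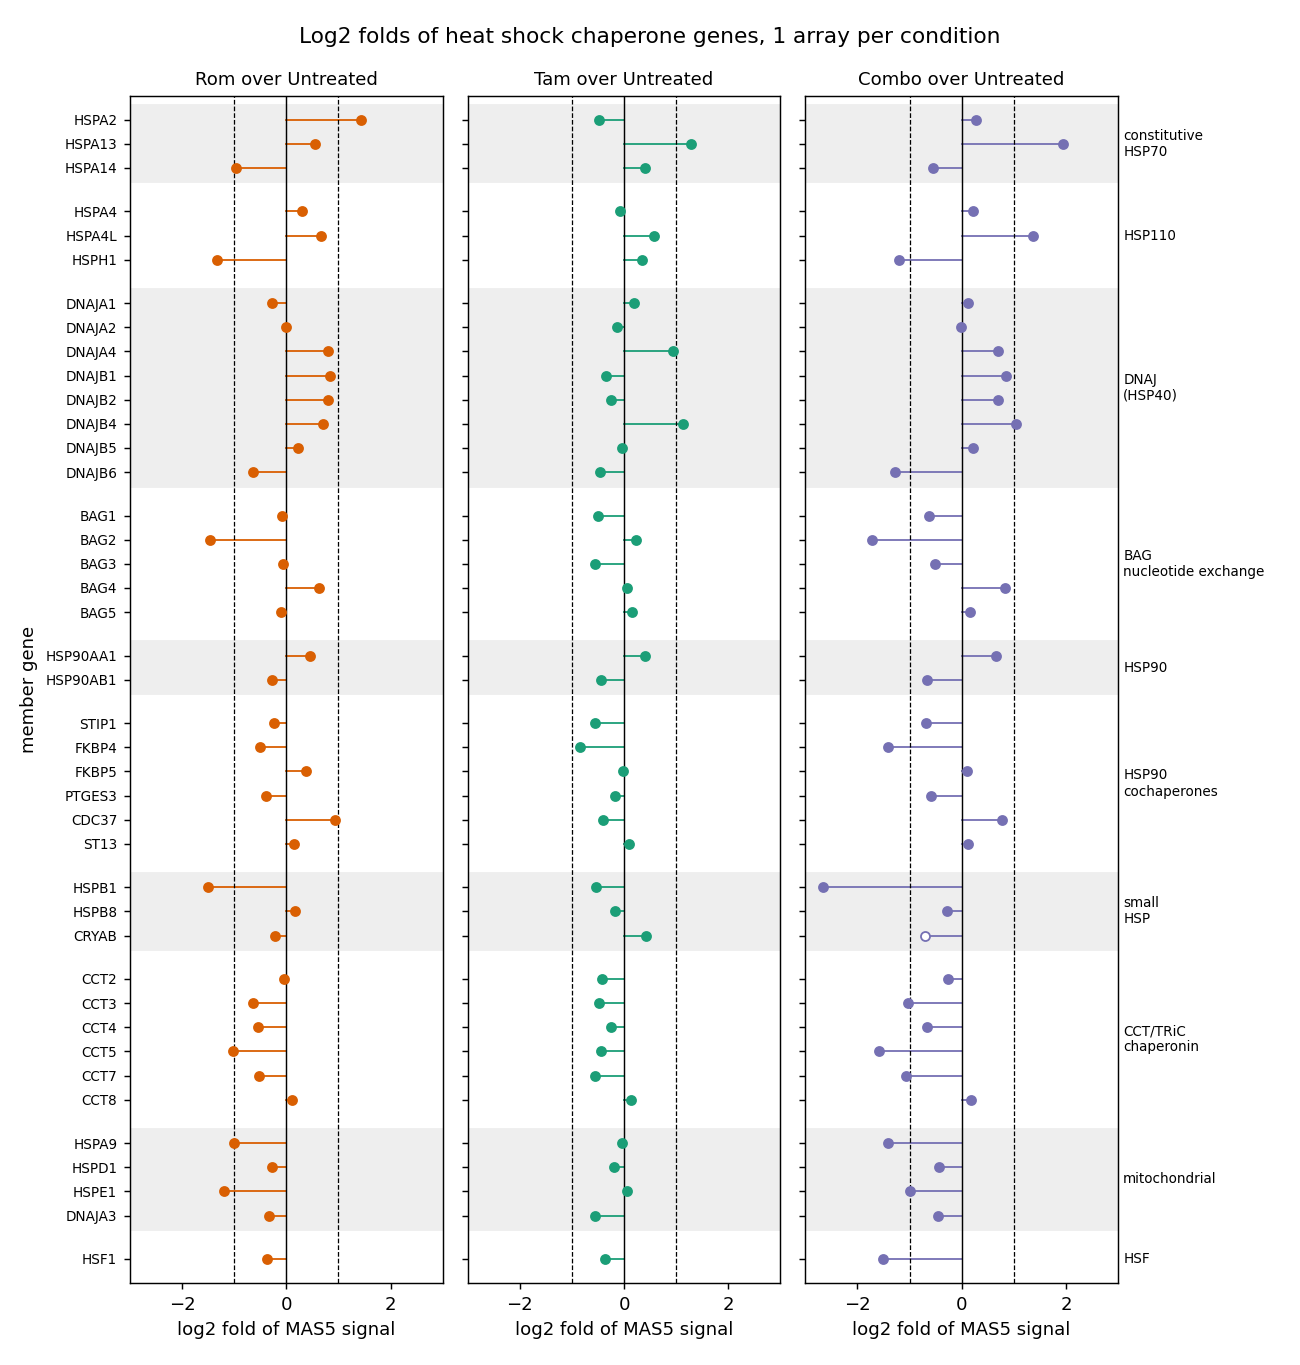
Log2 folds of the MAS5 signal of the 41 chaperone genes (rows, grouped by role) for Rom, Tam and Combo over Untreated, 1 array per condition. Dashed lines mark 2-fold, and the open circle is a bound because the Combo signal of CRYAB lay below the floor. HSPB1 reaches -2.66 in the right panel, and HSPA13 reaches 1.95.

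The size of these changes can be set beside the technical spread that the arrays give. Between 2 probe sets of a gene the median absolute difference of log2 folds was 0.25 for Rom, 0.22 for Tam and 0.29 for Combo over Untreated. The spike-in controls had SDs of 0.10, 0.11 and 0.10 in these comparisons (18 probe sets). Neither includes differences between cultures. Of 9 genes called in Combo over Untreated that had another probe set above the floor on both arrays, 8 had all such probe sets moving the same way, and in 6 at least 1 of them also passed 2-fold. For Rom over Untreated these counts were 3 of 3, with 2 past 2-fold, and for Combo over Tam 5 of 6, with 4 past 2-fold. For Tam over Untreated and for Combo over Rom they were 2 of 2 each, with 0 past 2-fold. Probe sets of a gene read the same RNA and do not replicate it.

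HSF1, the master factor of the heat shock response, had signals of 500 (Rom), 499.7 (Tam) and 225 (Combo), against 644 in Untreated. Both single drugs left it 1.29-fold lower, short of a call, and the combination 2.86-fold lower. A second, dimmer HSF1 probe set read 137 (Rom), 123 (Tam) and 136 (Combo), against 220 in Untreated. It was lower than Untreated under all 3 treatments, by 1.62-fold in Combo, and did not set Combo apart from either single drug. With the floor at the 75th percentile the log2 fold of HSF1 in Combo over Untreated was -0.66, no longer a call.

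Among HSP70 genes, HSPA2, a family member abundant in testis, had signals of 1058 (Rom), 281 (Tam) and 474 (Combo), against 393 in Untreated. Its Rom signal was the highest, 2.69-fold above Untreated, and Combo was 2.23-fold lower than Rom. Its only probe set is of a kind that can match several transcripts. HSPA13, a microsome-associated HSP70 relative, read 568 (Rom), 951 (Tam) and 1511 (Combo), against 390.1 in Untreated. All 3 treatments were above Untreated, and the log2 folds of the single drugs, 0.54 and 1.29, nearly summed to that of the combination, 1.95. Its second probe set gave 490 (Rom), 636 (Tam) and 713 (Combo), against 338 in Untreated, the same order with a smaller Combo fold of 2.11. There the log2 folds were 0.53 (Rom), 0.91 (Tam) and 1.08 (Combo), so that Combo lay below the sum of the single drugs. HSPA14, a ribosome-associated HSP70, had a log2 fold of -0.97 for Rom on the probe set used, but 0.03 and 0.25 on its other probe sets, so that its probe sets did not agree on a direction.

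The HSP110 genes, exchange factors for HSP70, went in opposite directions. HSPH1, the stress-inducible member, had 3576 (Rom), 11365 (Tam) and 3919 (Combo), against 8981 in Untreated. The arrays with romidepsin were low and the other pair high, with folds of 2.51 (Rom) and 2.29 (Combo) below Untreated. Another probe set was 2.93-fold and 2.55-fold lower in the same comparisons, and the dimmest, with signals between 159 and 360, only 1.39-fold and 1.31-fold lower. HSPA4L had 1045 (Rom), 976 (Tam) and 1702 (Combo), against 656 in Untreated. It rose 2.59-fold in Combo, and 3.16-fold on its other probe set, with neither single drug past 2-fold. HSPA4, also of this group, stayed between 6094 and 7898 on all 4 arrays.

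J-domain proteins bring clients to HSP70 and trigger its ATP use. DNAJB1, the classic stress-inducible one, had 13905 (Rom), 6162 (Tam) and 13987 (Combo), against 7795 in Untreated. The arrays with romidepsin were high, at 1.78-fold and 1.79-fold above Untreated, short of a call, and Combo was 2.27-fold above Tam. The second DNAJB1 probe set gave 1.90-fold, 1.81-fold and 2.52-fold in the same comparisons. DNAJB2, a J-protein of neurons, had nearly the same pattern, with 1131 (Rom), 551 (Tam) and 1057 (Combo), against 654 in Untreated.

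DNAJB4 had 849.5 (Rom), 1130.4 (Tam) and 1070.3 (Combo), against 519 in Untreated. It rose 2.18-fold with Tam and 2.06-fold with Combo, but 1.20-fold and 1.81-fold on its second probe set. DNAJB6, which keeps aggregation-prone proteins soluble, had 2636 (Rom), 2973 (Tam) and 1689.7 (Combo), against 4112 in Untreated, with all treated arrays low and Combo 2.43-fold lower. On the probe sets used, DNAJA1, DNAJA2 and DNAJB5 differed from Untreated by at most 0.28 on the log2 scale under any treatment. A dimmer DNAJB5 probe set gave other values, 234 (Rom), 132.0 (Tam) and 173 (Combo), against 109 in Untreated, 2.15-fold higher with Rom. DNAJA4 was dim, with 249 (Rom), 273 (Tam) and 231 (Combo), against 143 in Untreated.

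BAG proteins release nucleotide from HSP70 and steer its clients. BAG2, which restrains the ubiquitin ligase CHIP, had 1686 (Rom), 5411 (Tam) and 1406 (Combo), against 4636 in Untreated. As for HSPH1, the arrays with romidepsin were low, by 2.75-fold (Rom) and 3.30-fold (Combo), and Tam lay 1.17-fold above Untreated. Its other probe sets were dim, between 58.8 and 177, and did not agree. The log2 fold of Combo over Untreated was -0.94 on the first of them and 0.85, the opposite direction, on the other, which was also 2.37-fold higher with Tam. BAG3, the partner of HSPB8 in selective autophagy and an established HSF1 target, had 8805 (Rom), 6198 (Tam) and 6386 (Combo), against 9164 in Untreated, and was not called in any comparison. BAG1, BAG4 and BAG5 were not called either, with log2 folds over Untreated between -0.63 and 0.83 on the probe sets used, and dimmer probe sets of BAG1 and BAG4 had the opposite sign in Combo, at 0.70 and -0.32.

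The HSP90 paralogs moved apart. HSP90AA1, the stress-inducible form, had 27314 (Rom), 26253 (Tam) and 31372 (Combo), against 19905 in Untreated. HSP90AB1, the constitutive form, had 21637 (Rom), 19386 (Tam) and 16483 (Combo), against 26278 in Untreated. Every treated array was thus above Untreated for HSP90AA1 and below it for HSP90AB1, and this held on all 4 probe sets of the first gene, all 3 of the other and, for the probe sets used, under every scaling tried. Sizes varied with the probe set: log2 folds in Combo ran from 0.66 to 1.36 over the HSP90AA1 probe sets and from -0.75 to -0.59 over those of HSP90AB1. On the probe sets used, neither gene passed 2-fold. Less bright HSP90AA1 probe sets did in Combo, at 2.57-fold and 2.16-fold above Untreated.

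Cochaperones of HSP90 split as well. FKBP4, an immunophilin of steroid receptor complexes, had 4311 (Rom), 3382 (Tam) and 2304 (Combo), against 6108 in Untreated, each treatment lower and Combo 2.65-fold lower. A second FKBP4 probe set was 3.06-fold lower in Combo. CDC37, which loads kinases onto HSP90, had 4662 (Rom), 1860.1 (Tam) and 4213 (Combo), against 2448 in Untreated. The arrays with romidepsin were high, 1.90-fold (Rom) and 1.72-fold (Combo) above Untreated, and Combo was 2.27-fold above Tam. STIP1, which joins HSP70 to HSP90, was not called, at log2 folds of -0.24 (Rom), -0.55 (Tam) and -0.68 (Combo). FKBP5, PTGES3 (p23) and ST13 were not called in any comparison, although a dim FKBP5 probe set, below the floor in Untreated, had a log2 fold of 1.11 with Rom.

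**Figure D2:**
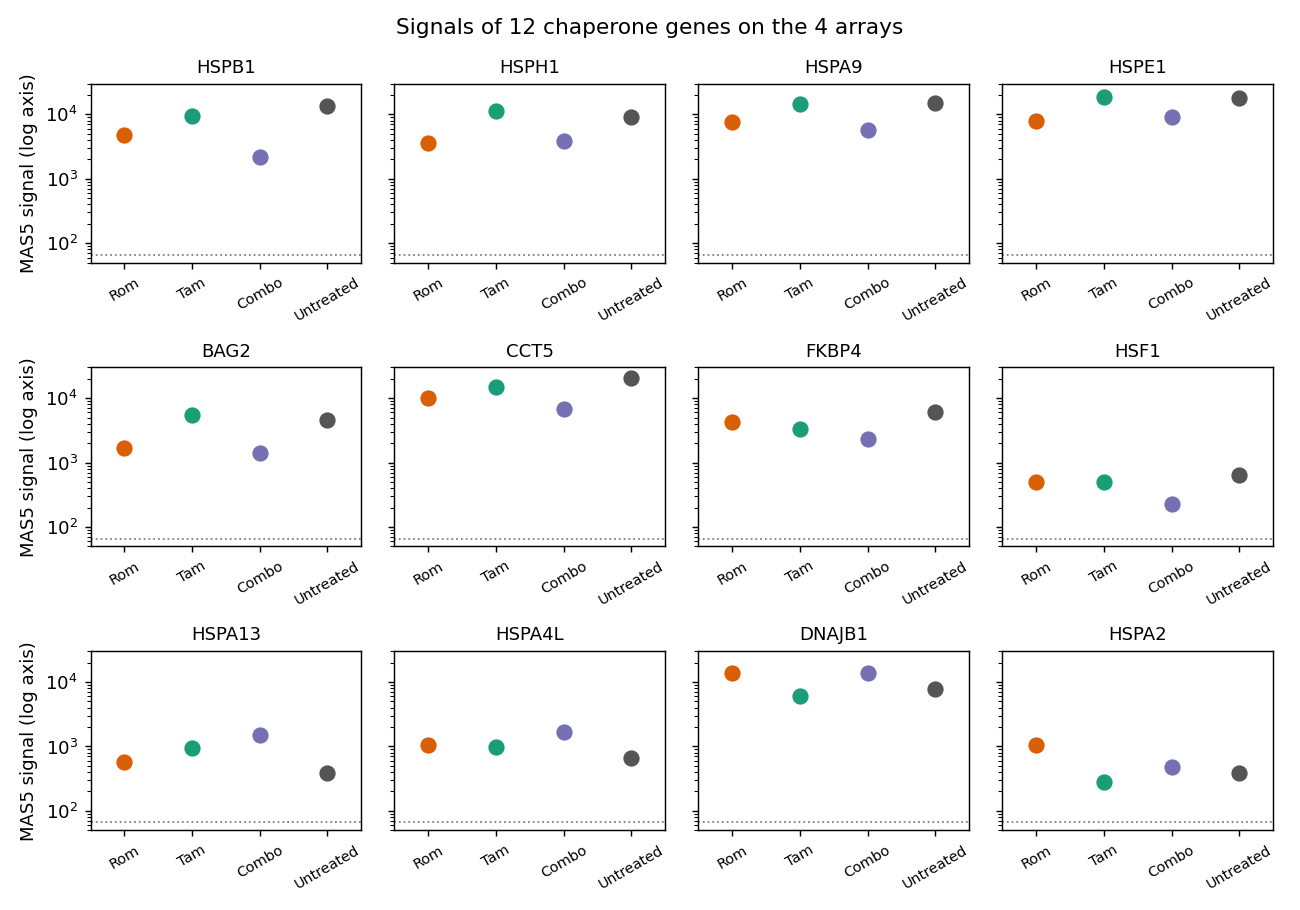
MAS5 signals (log axis) of 12 chaperone genes on the Rom, Tam, Combo and Untreated arrays, 1 point per array, with the floor of 66.4 as a dotted line. HSPB1 is at 4768, 9317, 2143 and 13547 from left to right, and HSPH1, HSPA9, HSPE1 and BAG2 are low on both arrays with romidepsin.

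The small heat shock proteins hold unfolded proteins without ATP. HSPB1 (HSP27) had 4768 (Rom), 9317 (Tam) and 2143 (Combo), against 13547 in Untreated. Each treated array was below Untreated, and the combination below both single drugs. The folds were 2.84 (Rom), 1.45 (Tam) and 6.32 (Combo) below Untreated, and the Combo value is the largest change of the 41 genes on these arrays. It rests on 1 probe set, of a kind that can match several transcripts. HSPB8 had 1431 (Rom), 1136 (Tam) and 1046 (Combo), against 1274 in Untreated, and was not called; on a dim second probe set its log2 fold in Combo over Rom was -1.13. CRYAB was dim, with 93.3 (Rom), 145 (Tam), below the floor in Combo, and 109 in Untreated, so that it was at least 2.18-fold lower in Combo than in Tam.

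The 250 bases upstream of the annotated starts of HSPB1, BAG2 and DNAJB6 are shown because these genes fell and hold a match to heat shock element letters. The sequences are from RefSeq on GRCh38.p14, 5′ to 3′ on the gene's strand, and capitals mark matches to GAANNTTC, which reads the same on both strands, or to a longer form that contains it and goes on with NNGAA. HSPB1 is at chr7:76302423-76302672, BAG2 at chr6:57172076-57172325 and DNAJB6 at chr7:157336754-157337003, all on the plus strand.
HSPB1: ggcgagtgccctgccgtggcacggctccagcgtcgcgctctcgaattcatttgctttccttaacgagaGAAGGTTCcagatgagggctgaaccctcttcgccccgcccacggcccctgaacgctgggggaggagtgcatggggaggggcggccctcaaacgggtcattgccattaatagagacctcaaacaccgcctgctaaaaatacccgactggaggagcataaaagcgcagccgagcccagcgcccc
BAG2: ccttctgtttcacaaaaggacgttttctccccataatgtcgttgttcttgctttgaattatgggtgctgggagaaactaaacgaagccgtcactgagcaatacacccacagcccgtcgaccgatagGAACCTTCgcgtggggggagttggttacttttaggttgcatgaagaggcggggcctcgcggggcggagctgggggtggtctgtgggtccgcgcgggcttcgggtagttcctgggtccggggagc
DNAJB6: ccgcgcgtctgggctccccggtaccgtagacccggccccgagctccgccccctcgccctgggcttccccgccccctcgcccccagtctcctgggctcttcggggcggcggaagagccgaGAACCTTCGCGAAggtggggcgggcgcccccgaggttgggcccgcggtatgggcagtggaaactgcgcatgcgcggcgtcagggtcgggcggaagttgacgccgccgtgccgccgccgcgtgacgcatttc
Of the 41 analysed genes 35 had a promoter entry; BAG4, CRYAB, FKBP4, HSF1, HSPA14 and ST13 had none. GAANNTTC lay upstream of 5 of the 35, which is 14.3%, against 5.85% of all 27305 promoters of that length. Beside the genes shown these were DNAJA1 and HSPB8, which were not called in the comparisons with untreated cells. The longer form, GAANNTTC followed by NNGAA or, on the other strand, preceded by TTCNN, lay in 1 of the 35, DNAJB6, and in 0.439% of all promoters. A match is a string of letters and not a shown binding site, and HSPA9, HSPE1 and HSPH1 fell with romidepsin without one in this window. CCT5 fell too, and its window held no match. That window includes coding bases of CCT5, so it does not cover the bases upstream of the whole gene.

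Of the 6 chaperonin subunits measured, CCT5, CCT7 and CCT3 fell with the combination and the others were not called. CCT5 had 9965 (Rom), 15046 (Tam) and 6762 (Combo), against 20309.6 in Untreated, with every treated array low and Combo lowest, at a log2 fold of -1.59. CCT7 had 12238 (Rom), 12049 (Tam) and 8395 (Combo), against 17635 in Untreated. CCT3 had 10635 (Rom), 11953 (Tam) and 8159 (Combo), against 16561 in Untreated. In both the single drugs gave like decreases of 1.39-fold to 1.56-fold and the combination 2.10-fold (CCT7) and 2.03-fold (CCT3). CCT4 was 1.59-fold lower in Combo, CCT2 1.21-fold lower and CCT8 1.14-fold higher, none of them called. The subunits of 1 complex thus ranged from -1.59 to 0.19 in log2 fold. The falls of CCT3 and CCT7 rest on 1 probe set each and ended with spike-in scaling, at -0.73 and -0.78, and with quantile normalization, at -0.78 and -0.82. Quantile normalization also ended the Rom call of CCT5, at -0.87.

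Of the 4 mitochondrial chaperones HSPA9 and HSPE1 fell with romidepsin, and HSPD1 and DNAJA3 were not called in any comparison. HSPA9 (mortalin), the HSP70 of the matrix, had 7508 (Rom), 14739 (Tam) and 5634 (Combo), against 15078 in Untreated. HSPE1 (HSP10) had 7882 (Rom), 18824 (Tam) and 9035 (Combo), against 17999.7 in Untreated. For both genes the arrays with romidepsin were low and the others high. HSPA9 was 2.01-fold (Rom) and 2.68-fold (Combo) lower than Untreated, with another probe set at 2.05-fold and 2.57-fold and the dimmest at only 1.45-fold and 1.65-fold. HSPE1 was 2.28-fold lower with Rom and 1.99-fold lower, just short of a call, with Combo. With quantile normalization the log2 fold of HSPA9 in Rom was -0.86, no longer a call. The J-protein DNAJA3 was lower with Tam, at a log2 fold of -0.56, than with Rom, at -0.34, and was at -0.45 in Combo.

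HSPD1 (HSP60), the partner of HSPE1, did not share its fall. Its signals were 28707 (Rom), 30195 (Tam) and 25513 (Combo), against 34648 in Untreated, 1.21-fold lower with Rom and 1.36-fold lower with Combo. A second bright HSPD1 probe set was 1.43-fold and 1.65-fold lower, still short of a call, and a dim one, between 142 and 188, differed by at most 1.27-fold. HSPD1 and HSPE1 are transcribed in opposite directions from starts that lie on either side of 104 bases of chromosome 2, at chr2:197500275-197500378 in GRCh38.p14 (RefSeq, plus strand). This stretch is shown because the gene pair shares it and its signals differed in response. It is 74.0% G and C and holds no match to GAANNTTC.
HSPD1-HSPE1: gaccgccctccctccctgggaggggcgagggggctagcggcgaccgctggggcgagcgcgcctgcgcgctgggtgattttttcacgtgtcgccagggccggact

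**Figure D3:**
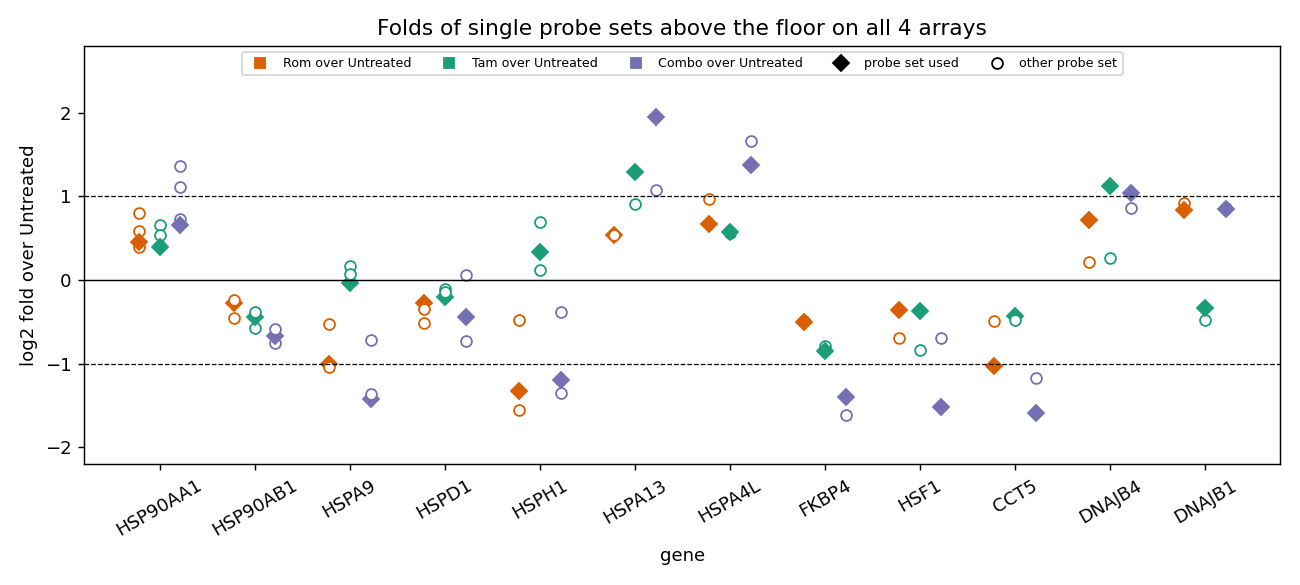
Log2 folds over Untreated of single probe sets above the floor on all 4 arrays, for 12 genes with more than 1 such probe set; diamonds are the probe sets used, open circles the others, and dashed lines 2-fold. All HSP90AA1 points lie above 0 and all HSP90AB1 points below it, while the HSPA9 and HSPH1 probe sets differ in size and 1 dim HSPD1 probe set lies at 0.07 in Combo, above 0.

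The effect of tamoxifen on top of romidepsin was read from Combo over Rom. HSPB1, HSPA2 and HSF1 fell, by 2.22-fold, 2.23-fold and 2.22-fold, which is 7.32% of the 41 genes against 2.27% of 13726 genes. HSPA13 rose 2.66-fold, 2.44% against 4.07% of all genes, but 1.46-fold on its second probe set, and the median over its probe sets, at a log2 fold of 0.98, ended the call. The median log2 fold was -0.15 beside -0.03 for all genes. With spike-in scaling 2 rose and 0 fell, against 9.63% and 0.648% of all genes. The fall of HSF1 was not seen on its second probe set, at a log2 fold of -0.01.

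The effect of romidepsin on top of tamoxifen was read from Combo over Tam. HSPB1 (4.35-fold), BAG2 (3.85-fold), HSPH1 (2.90-fold), HSPA9 (2.62-fold), CCT5 (2.23-fold), HSF1 (2.22-fold), CRYAB (at least 2.18-fold) and HSPE1 (2.08-fold) fell. These 8 genes were 19.5% of the 41, against 11.8% of 13893 genes. DNAJB1 and CDC37 rose, 4.88% against 14.8% of all genes. With the floor at the 75th percentile 2 of 39 rose and 6 fell, against 10.8% and 11.6% of 8958 genes. The Combo array enters both of these comparisons and that with untreated cells, so their values are not independent.

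The combination was also set against the sum of both single-drug log2 folds, for genes above the floor on all 4 arrays. Of 40 chaperones 1 lay at least 1 log2 unit below the sum, DNAJA4 at -1.05, which is dim, and 0 lay above it. Among all 11058 genes 2.23% lay below and 0.886% above. The median departure was 0.02 for the chaperones and -0.04 for all genes. DNAJB4 (-0.79), HSF1 (-0.79), HSPA2 (-0.67) and HSPB1 (-0.61) had the next lowest values. On their second probe sets DNAJB4 and HSF1 lay above the sum instead. For DNAJB4 these log2 folds were 0.21 (Rom), 0.27 (Tam) and 0.86 (Combo) over Untreated. HSPA2 and HSPB1 have 1 probe set each. This value holds the noise of 4 arrays.

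Other genes of chaperone pathways were taken from 4 lists that do not overlap the 41. Counts and medians of these lists were not recomputed under the other scalings, floors and probe-set rules. Of 16 measured mitochondrial chaperones and proteases 7 fell and 0 rose with Combo, and 3 fell with Rom. The falls are 43.8% of the list in Combo, against 14.4% of all genes, and 18.8% in Rom, against 9.27%. CLPP, a matrix protease, had 1151 (Rom), 1758 (Tam) and 613 (Combo), against 2461 in Untreated, 4.02-fold lower with Combo. DNAJC11 was 3.11-fold, DNLZ, an escort protein of HSPA9, 3.08-fold and the import subunit TIMM44 2.86-fold lower with Combo. The list's median in Combo was -0.42, beside 0.09 for all genes. None of the 16 was called with Tam.

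Among 29 other cytosolic chaperones and cochaperones measured in Combo 7 rose and 3 fell, with a median of -0.01. The shares, 24.1% and 10.3%, stand near the 19.8% and 14.4% of all genes. BBS10, a chaperonin-like protein, rose 5.92-fold, SGTB 5.80-fold, HSPA12A, a distant HSP70 relative, 4.78-fold and the CDC37 relative CDC37L1 3.75-fold. With Rom 5 of 30 rose and 2 fell, and with Tam 4 rose and 0 fell, against shares of all genes of 14.3% and 9.27% for Rom and 3.70% and 1.07% for Tam. Of 22 other J-proteins 6 rose and 4 fell with Combo, 2 rose and 4 fell with Rom, and 3 of 21 rose and 1 fell with Tam. In Combo these are 27.3% and 18.2%, against 19.8% and 14.4% of all genes, and in Rom 9.09% and 18.2%, against 14.3% and 9.27%. In Tam they are 14.3% and 4.76%, against 3.70% and 1.07%. DNAJC17 had 170.2 (Rom), 344 (Tam) and 88.4 (Combo), against 769 in Untreated, 8.70-fold lower with Combo. DNAJC12 had 1816 (Rom), 1199.5 (Tam) and 2638 (Combo), against 388 in Untreated, 6.80-fold higher with Combo. DNAJB12 was 3.67-fold lower and DNAJC6, an uncoating factor of clathrin vesicles, 3.47-fold higher.

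Prefoldin, which passes nascent actin and tubulin to CCT, and the tubulin cofactors formed the last list. Of 11 genes measured 0 were called with Rom or Tam, and with Combo PFDN4 fell 2.43-fold and TXNDC9, a cofactor of CCT, rose 2.26-fold. The list's median in Combo was -0.61, beside 0.09 for all genes.

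**Figure D4:**
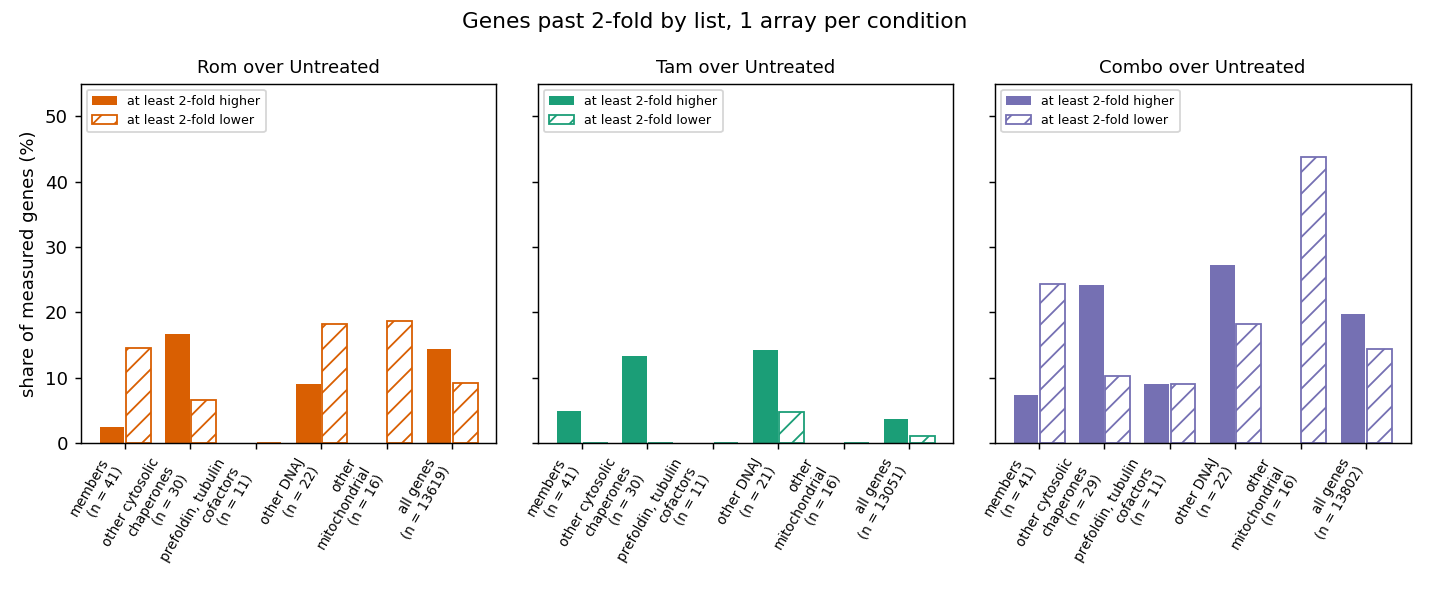
Share of measured genes (%) at least 2-fold higher (filled) or lower (hatched) than Untreated on the Rom, Tam and Combo arrays, for the 41 chaperones, 4 lists of related genes and all genes, with the number measured under each bar pair. In Combo 24.4% of the 41 chaperones and 43.8% of the other mitochondrial genes were lower, against 14.4% of all genes. The 4 lists were read from the deposited scaling only.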

How the data were processed

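MAS5 signal intensity values on a linear scale, deposited by the authors as a table of 54675 probe sets on 4 arrays, were used; MAS5 is named in the submitters' processing notes, with no version given in the sources used here. MAS5 joins perfect-match and mismatch probes into 1 signal, and every array had the same mean, 500.1, after trimming 2% at each end. Labelled cRNA was made from 100 ng of total RNA, per the labels' protocols. Probe sets were named from the platform annotation, which gives 1 gene for 41091 non-control probe sets, and checked by Entrez ID against RefSeq (GRCh38.p14, 41043 matched, 0 symbols changed). For each gene the brightest probe set, by its log2 signal averaged over the arrays, was used. Signals were floored at 66.4, and a gene was measured in a comparison where at least 1 of its arrays lay above that floor; 40 of the 41 chaperones lay above it on all 4 arrays. A call was a difference of at least 2-fold.

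The chaperones, their role groups, the 4 further lists, the rule for genes named (every chaperone may be named, and of each further list up to 4 with the largest folds whose probe sets moved one way) and the alternatives were chosen with earlier results of these data known. With 1 array per group no test was made. Alternatives were median centring, quantile normalization, spike-in scaling, floors at the 25th and 75th percentiles, the median over probe sets, omission of probe sets of the _s_at, _x_at and _a_at kinds, which can match several transcripts, and thresholds of 1.5-fold and 3-fold. Steps were tested on simulated data. The number of arrays limits the precision, and columns of other samples numbered 0. Python 3.11.15, numpy 2.4.6, pandas 2.3.3 and matplotlib 3.10.9 were used.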

Additional observations from a re-analysis of the deposited data

How the results depend on the processing

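Of 36 called folds of single chaperones, all kept their direction wherever they could be recomputed. The floor at the 25th percentile kept 36 of 36 past 2-fold, median centring 34, quantile normalization 31, spike-in scaling 29, the floor at the 75th percentile 32 of 35, the median over probe sets 25 of 36, and omission of the multi-transcript probe sets 19 of 24. Calls ended by the median over probe sets include the falls of BAG2 (-0.37) and FKBP4 (-0.81) in Combo and of CCT5 (-0.76) and HSPA9 (-0.79) in Rom, and spike-in scaling ended those of DNAJB6 (-0.99) and HSPH1 (-0.91) in Combo. Without the multi-transcript probe sets the falls of HSPA9 (-0.53 in Rom, -0.72 in Combo) and HSPH1 (-0.48 and -0.39) were no longer calls. Median log2 folds of the chaperones, as reported -0.10 (Rom), -0.17 (Tam) and -0.44 (Combo) over Untreated, -0.15 for Combo over Rom and -0.12 for Combo over Tam, moved with the scaling. Centred arrays gave -0.29, -0.31 and -0.74 over Untreated and -0.27 for Combo over Tam. Quantile normalization gave -0.014 for Tam and -0.33 for Combo. Spike-in scaling gave 0.19 for Tam, -0.15 for Combo and 0.16 for Combo over Rom, while it raised the median of all genes to 0.33, 0.34 and 0.25; relative to that median the chaperones stayed lower. Without the multi-transcript probe sets, 27 genes were left and the medians were -0.014 (Tam) and -0.23 (Combo over Tam); the median over probe sets gave -0.33 for Combo over Untreated.

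Counts moved too, and many are small. In Rom over Untreated, leaving out those probe sets gave 2 lower and 0 higher, against 8.80% and 14.9% of all genes. The 1.5-fold threshold gave 8 higher, against 26.0%, and the 3-fold threshold 0 either way, against 6.54% higher and 2.97% lower. In Tam over Untreated, centring gave 1 higher and 1 lower, against 2.21% and 2.39% of all genes. The median over probe sets gave 1 higher, against 2.19%. The 1.5-fold threshold gave 1 lower, against 8.82%, and the 3-fold threshold 0 higher, against 0.306%. In Combo over Untreated, spike-in scaling gave 6 higher and 6 lower, against 25.9% and 9.69% of all genes. The reduced probe sets gave 5 lower, against 12.9%. The 1.5-fold threshold gave 9 higher and 17 lower, against 30.9% and 24.6%. The 3-fold threshold gave 1 higher and 3 lower, against 9.96% and 6.22%. In Combo over Rom, spike-in scaling gave 2 higher and 0 lower, against 9.63% and 0.648% of all genes. The median over probe sets gave 0 higher, against 2.79%. The 1.5-fold threshold gave 2 higher and 5 lower, against 13.5% and 11.4%. The 3-fold threshold gave 0 either way, against 0.401% higher and 0.291% lower. In Combo over Tam, the reduced probe sets gave 0 higher and 5 lower, against 15.1% and 11.2% of all genes. The median over probe sets gave 5 lower, against 9.65%. The 1.5-fold threshold gave 7 higher, against 26.3%, and the 3-fold threshold 0 higher and 2 lower, against 6.60% and 4.77%. The count of genes set apart in Combo from the sum of the single-drug folds, 1 as reported, was 2 with the floor at the 25th percentile, 5 at 1.5-fold, and 0 with quantile normalization, the floor at the 75th percentile, the median over probe sets or 3-fold. Fewer genes were measured with the reduced probe sets, and the cause of the changed counts was not tested. No paired analysis was possible because each group holds 1 array.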
